A study of Mus musculus with 8 samples.

Results

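Nitric oxide and cGMP signalling was examined in mouse hippocampus through 10 genes chosen by name: Nos1, Nos2, Nos3, Nos1ap, Gucy1a2, Prkg1, Prkg2, Pde5a, Pde2a and Pde9a. All 10 had at least 1 array probe that could be named through its RefSeq accession, out of 21368 genes named in this way, and all 10 were tested. The question behind the choice is that hydroxyurea can release nitric oxide. The rule used gene names and no measured difference, but it was set with earlier results of these data known.

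RNA was taken from the hippocampus of 8 female mice, with 1 single-colour Agilent array per mouse and 4 mice per group. The Hydroxyurea mice drank the drug at 45 mg/kg/day for 10 weeks, starting at 9 to 14 weeks of age. Hydroxyurea 1 and 2 were 24 weeks old at the end of treatment, and Hydroxyurea 3 and 4 were 19 weeks old. The Control mice were untreated and 19 weeks old. Mice of both groups were nontransgenic littermates of APPswe695/PSEN1dE9 animals (B6.Cg-Tg(APPswe,PSEN1dE9)85Dbo/J) kept on a C57BL/6J background, so no group carried the Alzheimer transgenes. Mice lived 2 to 4 per cage, with cage mates not given, and p-values measure the spread between these mice. The arrays shared a slide, with Hydroxyurea arrays in row 2 and Control arrays in row 1, so the row on the slide cannot be told apart from treatment. No untreated mouse was 24 weeks old, so in the older animals age and treatment cannot be told apart either.

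Nitric oxide is a gas made from arginine by nitric oxide synthases. It binds the haem of soluble guanylyl cyclase, an enzyme of one alpha and one beta subunit, which then makes cGMP. In neurons and vessels cGMP acts through cGMP-dependent protein kinases and cyclic nucleotide-gated channels, and phosphodiesterases end the signal. In hippocampus the pathway is known for its part in synaptic plasticity and in the coupling of blood flow to activity.

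Values are log2 of the processed spot signal minus log2 of the 75th percentile of that array, called the scaled log2 signal below. A difference of 1 is a 2-fold change, and levels of different probes cannot be set against each other. Groups were compared with limma on all 16620 genes tested, with Benjamini-Hochberg adjustment over all of them and a threshold of 0.05. In whole tissue, fewer cells of a type and less RNA per cell cannot be told apart.

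Before scaling, signals at the 75th percentile ranged from 1052 to 2162 on Hydroxyurea arrays and from 1677 to 2417 on Control arrays, with Hydroxyurea 2 the dimmest. The scanner software's median CV of replicate spots was 7.61% to 8.84% on Hydroxyurea arrays, against 18.6% on Control 1 and 8.93% to 9.30% on the other Control arrays. All 10 markers of hippocampal pyramidal and granule neurons were well above background on all 8 arrays, with a summed signal of 50.6 to 59.3 times the 75th percentile in Hydroxyurea mice and 49.3 to 59.1 times in Control mice. Choroid plexus markers, all 9 detected on every array, summed to 18.1 to 221 times the 75th percentile in Hydroxyurea mice and 8.54 to 106 times in Control mice. Striatal markers summed to 13.4 to 17.99 times in Hydroxyurea mice and 12.6 to 13.1 times in Control mice, without overlap. What part tissue next to the hippocampus had in the differences between groups was not tested.

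None of the 10 genes passed the threshold between Hydroxyurea and Control mice. The limma fit called 0 of 10, where it called 0 of all genes tested (0%). At an unadjusted p under 0.05 there was 1 of 10, Gucy1a2, where 9.89% of all genes had such a p (3.53% higher and 6.36% lower), so this count is near the background. In 0 of 10 genes did the 4 Hydroxyurea values and the 4 Control values lie apart, where 7.5% of all genes had groups that did not overlap. There were 5 genes with a higher and 5 with a lower mean in Hydroxyurea mice, and between 3 and 7 were lower in the 19 other settings run, where 51.3% of all genes were lower. Their median log2 fold change was -0.01, beside -0.0038 over all genes tested.

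Among all genes, 586 were higher and 1057 lower at that unadjusted p, and with median centring of each array the split was 196 and 1802.

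**Figure D1:**
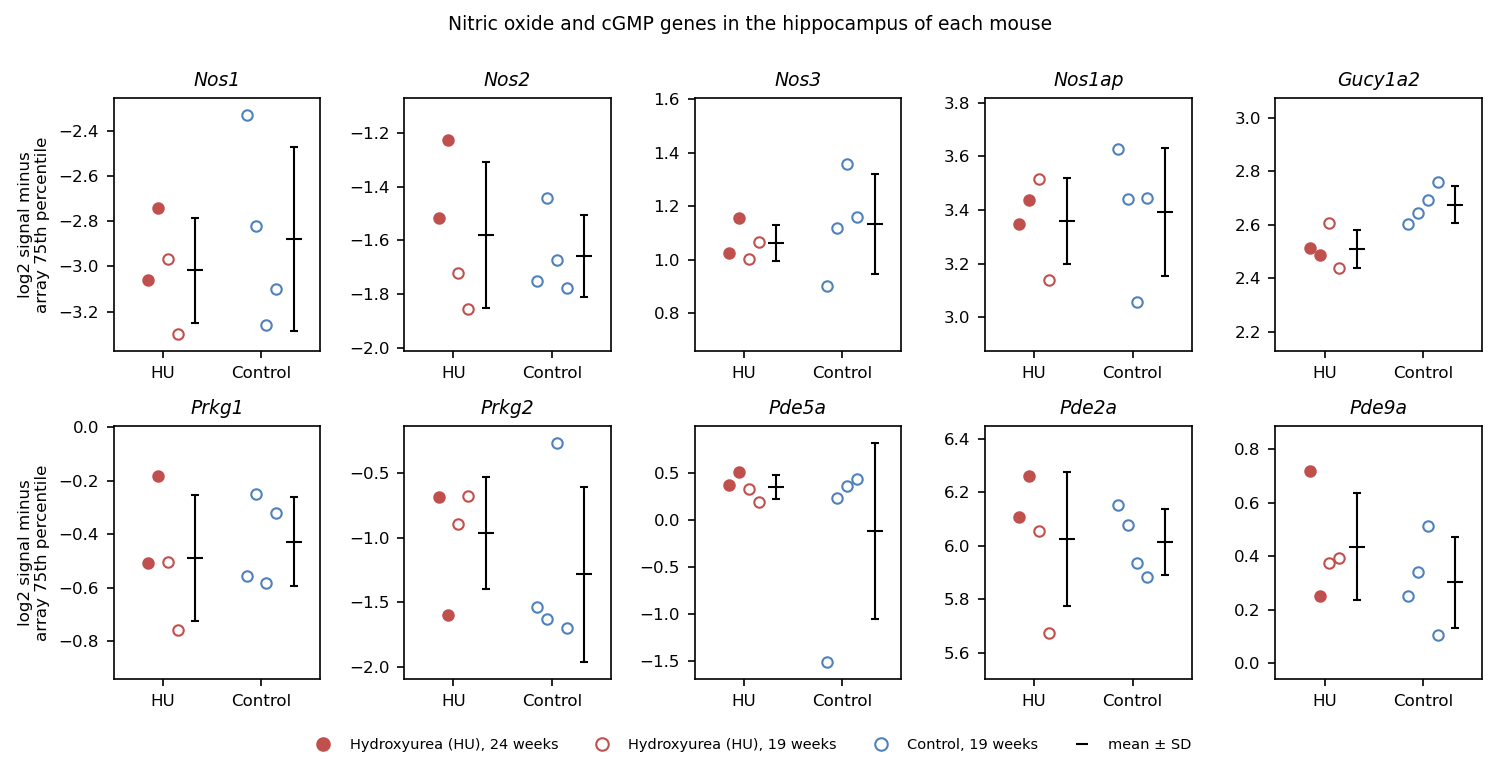
Scaled log2 signal (y axis, with its own range in each panel) of the 10 genes in every mouse. Hydroxyurea (HU) mice stand left of Control mice, filled points are 24-week mice, and the bar is the mean ± SD of 4 mice. Pde5a in Control 1 (-1.51) and Prkg2 in Control 3 (-0.27) stand far from the rest of their group.

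Of the synthases, Nos1, the neuronal enzyme, had a scaled log2 signal of -3.06, -2.74, -2.97 and -3.30 in Hydroxyurea 1 to 4, against -2.33, -2.82, -3.26 and -3.10 in Control 1 to 4. The Control range enclosed all Hydroxyurea values but the lowest, and Control 1 was the highest of the 8 mice. Nos1 had -0.14 ± 0.21 as its log2 fold change (± SE here and below, 4 mice per group; adjusted p = 0.834 in limma), with a 95% interval from -0.62 to 0.34. Its sign rested on Control 1, without which it was 0.04, and it was 0.07 with normexp background correction. Nos1 is rich in a subset of interneurons, and 9 markers of interneurons summed to 99.9 to 122 times the 75th percentile in Hydroxyurea mice and 98.2 to 117 times in Control mice. Chodl, a marker of long-range projecting interneurons rich in Nos1, was well above background on 0 of 8 arrays.

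Nos2, the synthase that immune stimuli induce in microglia and macrophages, was well above background on all 8 arrays. It had a scaled log2 signal of -1.51, -1.23, -1.72 and -1.86 in Hydroxyurea 1 to 4, against -1.75, -1.44, -1.67 and -1.78 in Control 1 to 4. The Hydroxyurea mice spread on both sides of the Control mice, with Hydroxyurea 2 highest and Hydroxyurea 4 lowest. Nos2 had a log2 fold change of 0.08 ± 0.14 (limma adjusted p = 0.866), and it was -0.0017 with median centring. The 6 microglial markers were detected on every array and summed to 37.9 to 46.1 times the 75th percentile in Hydroxyurea mice and 39.1 to 44.5 times in Control mice.

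Nos3, the synthase of endothelial cells, had a scaled log2 signal of 1.02, 1.16, 1.002 and 1.07 in Hydroxyurea 1 to 4, against 0.90, 1.12, 1.36 and 1.16 in Control 1 to 4. The Hydroxyurea values lay inside the Control range. Between groups the log2 fold change was -0.07 ± 0.10 (limma adjusted p = 0.818), and a second, dimmer Nos3 probe had 0.09 ± 0.08, so the sign depended on the probe. All 9 endothelial markers were detected on every array, with a summed signal of 23.9 to 30.4 times the 75th percentile in Hydroxyurea mice and 24.3 to 34.8 times in Control mice, lowest among Control mice in Control 1 and highest in Control 3, as for Nos3. Their part in the spread of Nos3 was not tested.

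Nos1ap encodes an adaptor that binds neuronal nitric oxide synthase and links it to other signalling proteins. It had a scaled log2 signal of 3.35, 3.44, 3.51 and 3.14 in Hydroxyurea 1 to 4, against 3.63, 3.44, 3.06 and 3.44 in Control 1 to 4. The groups covered nearly the same range, from a low mouse in each (Hydroxyurea 4 and Control 3). Nos1ap had a log2 fold change of -0.03 ± 0.13 (limma adjusted p = 0.946), with an interval from -0.34 to 0.28, and its sign turned without Control 1 (0.04).

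Gucy1a2, an alpha subunit of the soluble guanylyl cyclase that nitric oxide activates, came nearest to a separation of the groups. Its brightest probe had a scaled log2 signal of 2.51, 2.49, 2.61 and 2.44 in Hydroxyurea 1 to 4, against 2.60, 2.65, 2.69 and 2.76 in Control 1 to 4. Only Hydroxyurea 3 (2.608) reached the lowest Control mouse (2.604). The log2 fold change was -0.16 ± 0.06 (limma unadjusted p = 0.0315, adjusted p = 0.491), which is 0.892 times the Control level, with a 95% interval from 0.806 to 0.987 times. By unadjusted p it ranked 1055 of 16620 genes.

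A pair of other Gucy1a2 probes gave log2 fold changes of -0.26 ± 0.14 and -0.04 ± 0.17 in a fit of all detected probes (limma adjusted p = 0.634 and 0.950). All 3 Gucy1a2 probes thus had a lower mean in Hydroxyurea mice, and the groups overlapped in each. The direction was kept in all 19 other settings run, but the unadjusted p was under 0.05 in only some of them, and the smallest adjusted p was 0.202, with array weights. With the mean of all its probes Gucy1a2 had an unadjusted p of 0.189, and with 19-week mice only one of 0.134.

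The partners of Gucy1a2 were then read, although these were singled out after their values were seen. Gucy1b1, the beta subunit with which either alpha subunit pairs, had a scaled log2 signal of 3.73, 3.74, 3.79 and 3.74 in Hydroxyurea 1 to 4, against 2.91, 3.83, 3.67 and 3.82 in Control 1 to 4. Apart from the low Control 1 the groups overlapped, and the log2 fold change of 0.19 ± 0.20 (limma adjusted p = 0.756) was -0.02 without that mouse. Gucy1a1, the other alpha subunit, had -0.09 ± 0.10 (adjusted p = 0.777), and with 1 array left out it ran from -0.15 (without Control 2) to -0.016 (without Control 3).

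**Figure D2:**
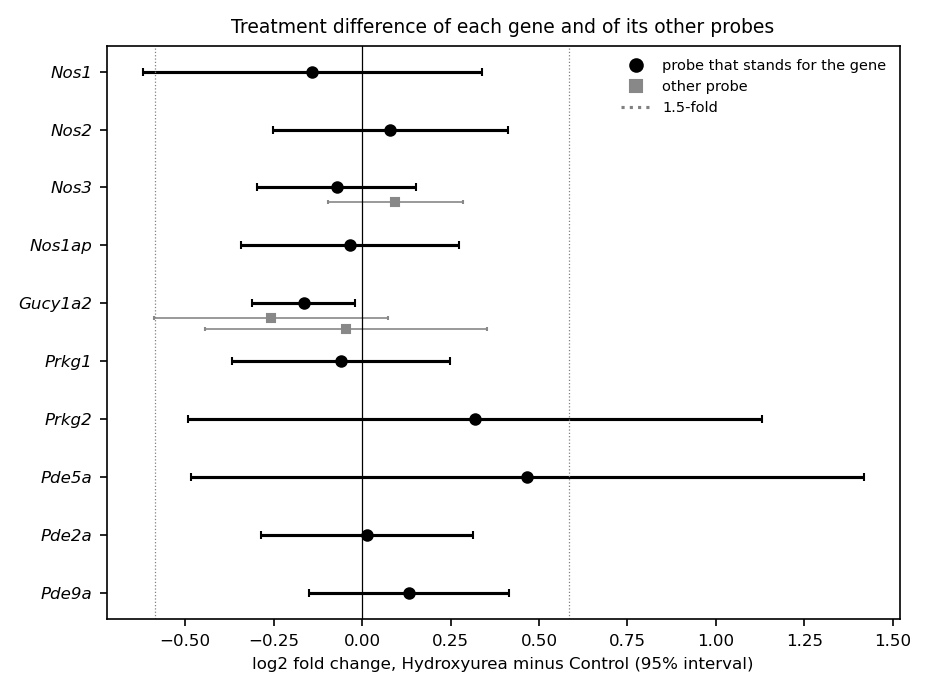
Log2 fold change of Hydroxyurea minus Control (x axis) with its 95% limma interval for the 10 genes. Black points are the probe that stands for the gene and grey squares its other probes, fitted among all detected probes. Dotted lines mark 1.5-fold. The interval of the Gucy1a2 point lies below 0, and those of Prkg2 and Pde5a are the widest.

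Of the cGMP-dependent protein kinases, Prkg1 encodes the soluble type I enzyme of smooth muscle and neurons. It had a scaled log2 signal of -0.51, -0.18, -0.50 and -0.76 in Hydroxyurea 1 to 4, against -0.56, -0.25, -0.58 and -0.32 in Control 1 to 4. The groups overlapped over the whole Control range, and the log2 fold change was -0.06 ± 0.13 (limma adjusted p = 0.896). Its sign turned without Hydroxyurea 4 (0.03). Mural cell markers summed to 6.56 to 7.32 times the 75th percentile in Hydroxyurea mice and 6.33 to 7.99 times in Control mice.

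Prkg2, the membrane-bound type II kinase, varied strongly from mouse to mouse. It had a scaled log2 signal of -0.69, -1.59, -0.90 and -0.68 in Hydroxyurea 1 to 4, against -1.54, -1.63, -0.27 and -1.70 in Control 1 to 4. Control 3 was the highest of the 8 mice, while the other Control mice lay close to Hydroxyurea 2. The SD over the 8 mice was 0.55, higher than for 94.3% of genes tested. The log2 fold change was 0.32 ± 0.35 (limma adjusted p = 0.776), with a 95% interval from -0.49 to 1.13.

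That value rested on single mice: it was 0.66 without Control 3 (unadjusted p = 0.0229, limma adjusted p = 0.568) and 0.18 without Control 4. It was 0.20 without Control 2 and 0.53 without Hydroxyurea 2. In rodent brain Prkg2 is also known from the thalamus. Markers of thalamus and habenula summed to 10.8, 9.39, 15.1 and 10.5 times the 75th percentile in Hydroxyurea 1 to 4, against 11.1, 8.61, 12.1 and 8.92 times in Control 1 to 4. Of the 9 markers, 6 to 8 were above background on a given array, and Chrna3 on 0 of 8. Choroid plexus markers summed to 18.1, 165, 82.2 and 221 times in Hydroxyurea 1 to 4, against 8.54, 29.7, 106 and 55.0 times in Control 1 to 4. Control 3 was the highest Control mouse for Prkg2 and for the sums of both lists. For thalamic markers this depended on the summary. By their mean log2 deviation from the mean of all mice, Control 1 (0.0055) lay above Control 3 (-0.042). Control 1, with more thalamic signal than Control 2 and 4, was low for Prkg2 like them. Hydroxyurea 2, the lowest treated mouse for Prkg2 and thalamic markers, had the second-highest choroid plexus sum. The part of neighbouring tissue in the Prkg2 values was not tested.

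Pde5a, the cGMP-specific phosphodiesterase that sildenafil inhibits, had the largest mean difference of the 10 genes, and 1 array carried it. It had a scaled log2 signal of 0.37, 0.51, 0.33 and 0.19 in Hydroxyurea 1 to 4, against -1.51, 0.24, 0.37 and 0.44 in Control 1 to 4. Before scaling the Pde5a spot read 635.3 on Control 1 and 1495.3 to 3117.6 on the other arrays. This gave a log2 fold change of 0.47 ± 0.41 (limma adjusted p = 0.718), and it was 0.0022 without Control 1.

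Such isolated low values were common on Control 1. In 250 of 16587 genes with a value on every array (1.51%), Control 1 lay over 1 log2 unit below all other mice, against 4 to 12 genes on each Hydroxyurea array and 1 to 6 on each of the other Control arrays. Of the 10 genes Pde5a was the only one among the 250. Of the further pathway genes, Txnrd1, a thioredoxin reductase singled out after its values were seen, was among them, with 0.77 in Control 1 and 2.58 to 2.71 in the other 7 mice. What lowered the Pde5a value was not tested.

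**Figure D3:**
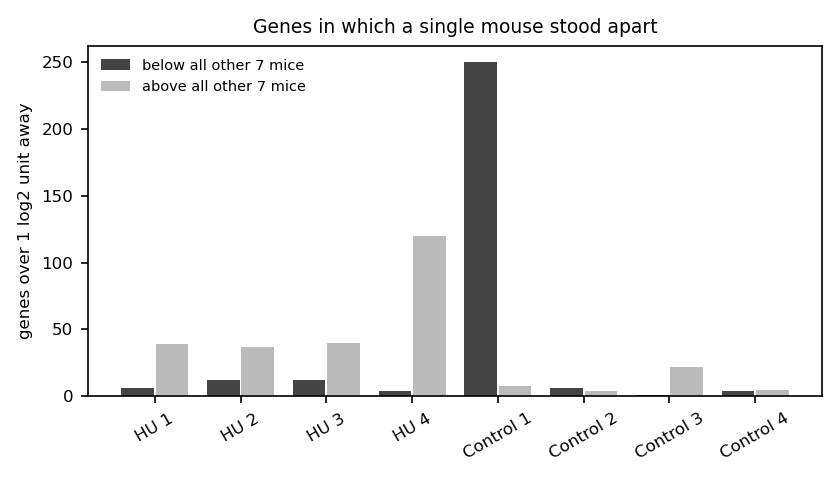
Number of genes (y axis) in which 1 mouse lay over 1 log2 unit below (dark bars) or above (light bars) all other 7 mice, for each array (x axis; HU is Hydroxyurea). Control 1 has 250 genes below, and Hydroxyurea 4 has 120 above.

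Pde2a, a phosphodiesterase of forebrain neurons that cGMP itself stimulates, had a scaled log2 signal of 6.11, 6.26, 6.06 and 5.67 in Hydroxyurea 1 to 4, against 6.15, 6.08, 5.94 and 5.89 in Control 1 to 4. The Hydroxyurea mice held both the highest and the lowest value. The log2 fold change was 0.01 ± 0.13 (limma adjusted p = 0.980), with a 95% interval from -0.29 to 0.31. It took the other sign with quantile normalization (-0.04) and median centring (-0.07).

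Pde9a, a phosphodiesterase with high affinity for cGMP, had 0.72, 0.25, 0.38 and 0.39 in Hydroxyurea 1 to 4, against 0.25, 0.34, 0.51 and 0.11 in Control 1 to 4. Hydroxyurea 1 was the highest mouse and the others lay within the Control range. Between groups the log2 fold change was 0.13 ± 0.12 (limma adjusted p = 0.732), and it was 0.04 without Hydroxyurea 1, 0.067 without Control 4 and 0.20 without Control 3.

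The intervals state what size of difference these arrays leave possible. For 7 of the 10 genes the 95% interval lay inside a 1.5-fold change in either direction, and for 77.7% of all genes tested it did. The exceptions were Nos1, Prkg2 and Pde5a. A 2-fold change lay outside the interval for 8 of 10 genes, all but Prkg2 and Pde5a, and for 92.3% of all genes. The interval lay inside 1.2-fold for 0 of 10 genes and for 26.7% of all genes. In simulated data of this design, limma called 56.6% of genes changed 1.5-fold and 74.2% of those changed 2-fold. These rates hold for 200 changed genes of 16587. With fewer changed genes the Benjamini-Hochberg cutoff is stricter and fewer would be called, and in the measured data 0 genes were called. The simulation drew independent noise for each gene, with its measured SD taken as the true one, so no array was low in many genes together. Its rates are averages over genes and do not give the rate for a single gene. Prkg2 and Pde5a had a higher SD over the 8 mice than 94.3% and 96.2% of genes tested.

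The treated mice differed in age, and the 24-week mice were set against the 19-week mice with the Control mice sharing the estimate of spread. None of the 10 genes passed, and limma called 0 of all genes tested (0%). At an unadjusted p under 0.05 there was 1 of 10, Nos2, where 2.7% of all genes had such a p. Nos2 had -1.51 and -1.23 in the 24-week mice, against -1.72 and -1.86 in the 19-week mice. Microglial markers summed to 43.2 and 46.1 times the 75th percentile in the 24-week mice, against 37.9 and 40.3 times in the 19-week mice. Blood markers summed to 160 and 139 times in the 24-week mice, against 75.3 and 90.9 times in the 19-week mice. In Control 1 to 4, Nos2 had -1.75, -1.44, -1.67 and -1.78. Their microglial markers summed to 39.1, 41.4, 41.8 and 44.5 times, and their blood markers to 107, 85.9, 121 and 111 times. Control 4 was thus highest for microglial markers and lowest for Nos2 among Control mice, and Control 2 lowest for blood markers and highest for Nos2. The part of these cells in the Nos2 difference was not tested. For Nos2 the log2 difference was 0.42 ± 0.15 (SE, n = 2 per age; limma unadjusted p = 0.0270, adjusted p = 0.99995).

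Nos2 averaged -1.37 in 24-week and -1.79 in 19-week treated mice, with the Control mean of -1.66 in between. Pde2a had a log2 difference of 0.32 ± 0.15 and Prkg1 of 0.29 ± 0.17 (adjusted p = 0.99995 each). In 8 of the 10 genes the mean was higher at 24 weeks, with a median difference of 0.14, where 44.5% of all genes were higher at 24 weeks and their median was -0.02. The 19-week mouse Hydroxyurea 4 was the lowest treated mouse for Nos1, Nos2, Nos1ap, Gucy1a2, Prkg1, Pde5a and Pde2a, but not for Nos3, Prkg2 and Pde9a. For Prkg1 it had -0.76, while Hydroxyurea 3, also 19 weeks old, had -0.50, against -0.51 and -0.18 in the 24-week mice. Gucy1a2 differed little, by -0.02 ± 0.10, and both its age means (2.50 at 24 weeks and 2.52 at 19 weeks) lay below the Control mean of 2.68.

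Around these genes, 75 further genes of the pathway were listed by role, of which 68 were tested. Natriuretic peptide receptor gene Npr1 and the channel genes Cnga1 and Cngb3 were among the 7 not tested, with 0 arrays above background. With limma 0 of 68 passed the threshold. Gucy2g was above background on Control arrays alone and is left out of the counts that follow. Gucy2e, Cnga3 and Pde3a would also have passed the filter on Control arrays alone, with 1, 2 and 2 of 4 Hydroxyurea arrays above background. They are kept, and each had a lower mean in Hydroxyurea mice. Nppb, with 3 of 4 Hydroxyurea arrays above background, is kept too and had a higher mean. Of the 67 genes without Gucy2g, 4 were higher and 0 lower at an unadjusted p under 0.05 in limma. Among all genes 3.53% were higher and 6.36% lower at such a p, 9.89% together. With Gucy2g, 1 of 68 was lower at such a p. The groups did not overlap in 4 of the 67, where they did not in 7.5% of all genes. The median log2 fold change was 0.0036, with 34 genes higher and 33 lower. The smallest adjusted p was 0.462, for Ass1.

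**Figure D4:**
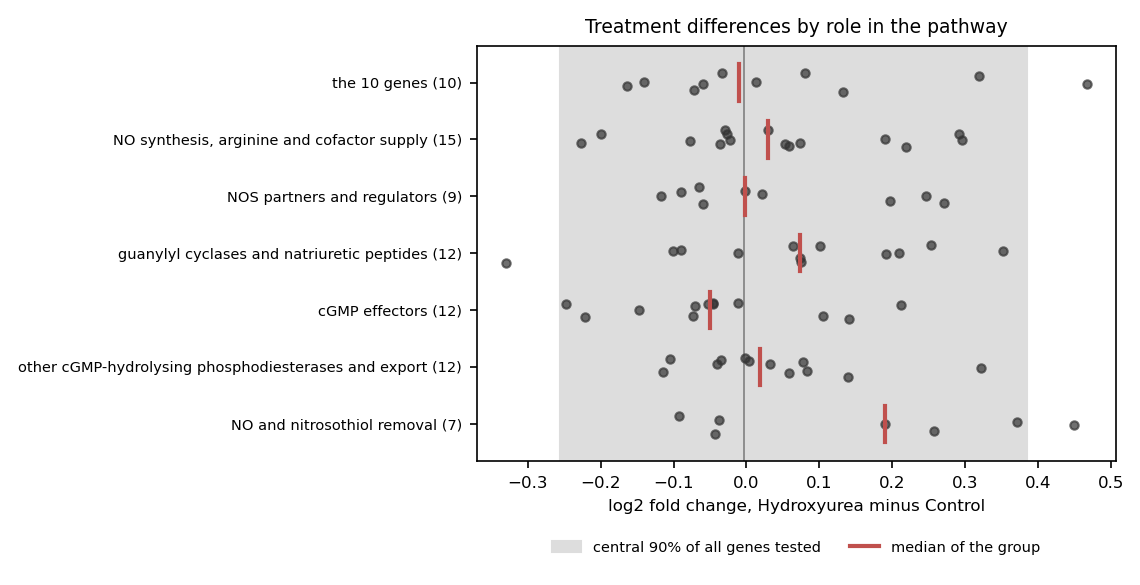
Log2 fold change of Hydroxyurea minus Control (x axis) of each gene tested (points), by role. The number of genes stands in parentheses, red bars are medians and the grey band holds the central 90% of all genes tested, from -0.26 to 0.39. The medians lie between -0.05 and 0.19, and that of 0.19 is -0.03 without Control 1. Gucy2g, measured above background in Control mice only, is not drawn.

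Among genes for the supply of arginine, Ass1 separated the groups. Ass1, which makes argininosuccinate in the recycling of citrulline to arginine, had a scaled log2 signal of 2.24, 2.33, 2.37 and 2.61 in Hydroxyurea 1 to 4, against 2.11, 2.11, 2.11 and 2.04 in Control 1 to 4. All Hydroxyurea mice lay above all Control mice, and the Control mice spread little (SD 0.03). The log2 fold change was 0.29 ± 0.09 (limma unadjusted p = 0.00901, adjusted p = 0.462), and a second Ass1 probe had 0.46 ± 0.10 (adjusted p = 0.570 in the fit of all probes). Ass1 was highest in Hydroxyurea 4, the mouse with the most choroid plexus signal, and its log2 fold change was 0.22 without that mouse. Control mice, with choroid plexus sums of 8.54 to 106 times the 75th percentile, had Ass1 values of 2.04 to 2.11. Hydroxyurea 1, with a sum of 18.1 times, lay above every Control mouse for Ass1. The part of choroid plexus in the Ass1 values was not tested. With median centring Ass1 had 0.21 (unadjusted p = 0.118 in limma).

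Asl, which cleaves argininosuccinate to arginine, had 0.19 ± 0.10 (limma adjusted p = 0.557), with groups that overlapped, and 0.12 without Control 4. Of the 15 genes tested that bear on arginine, cofactors or inhibitors of the synthases, 8 were higher and 7 lower, with a median of 0.03. That count mixes genes that add to supply with genes that act against it, such as Arg2, Gchfr and Prmt1. Among 9 partners of the synthases, 4 were higher and 5 lower. Hsp90aa1, a chaperone of endothelial synthase, had -0.09 ± 0.07 and Cav1, which holds that enzyme inactive in caveolae, 0.25 ± 0.19, with adjusted p of 0.667 and 0.677 in limma. Single arrays moved both: Hsp90aa1 was -0.055 without Control 2, and Cav1 ran from 0.14 without Control 2 to 0.38 without Control 1.

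**Figure D5:**
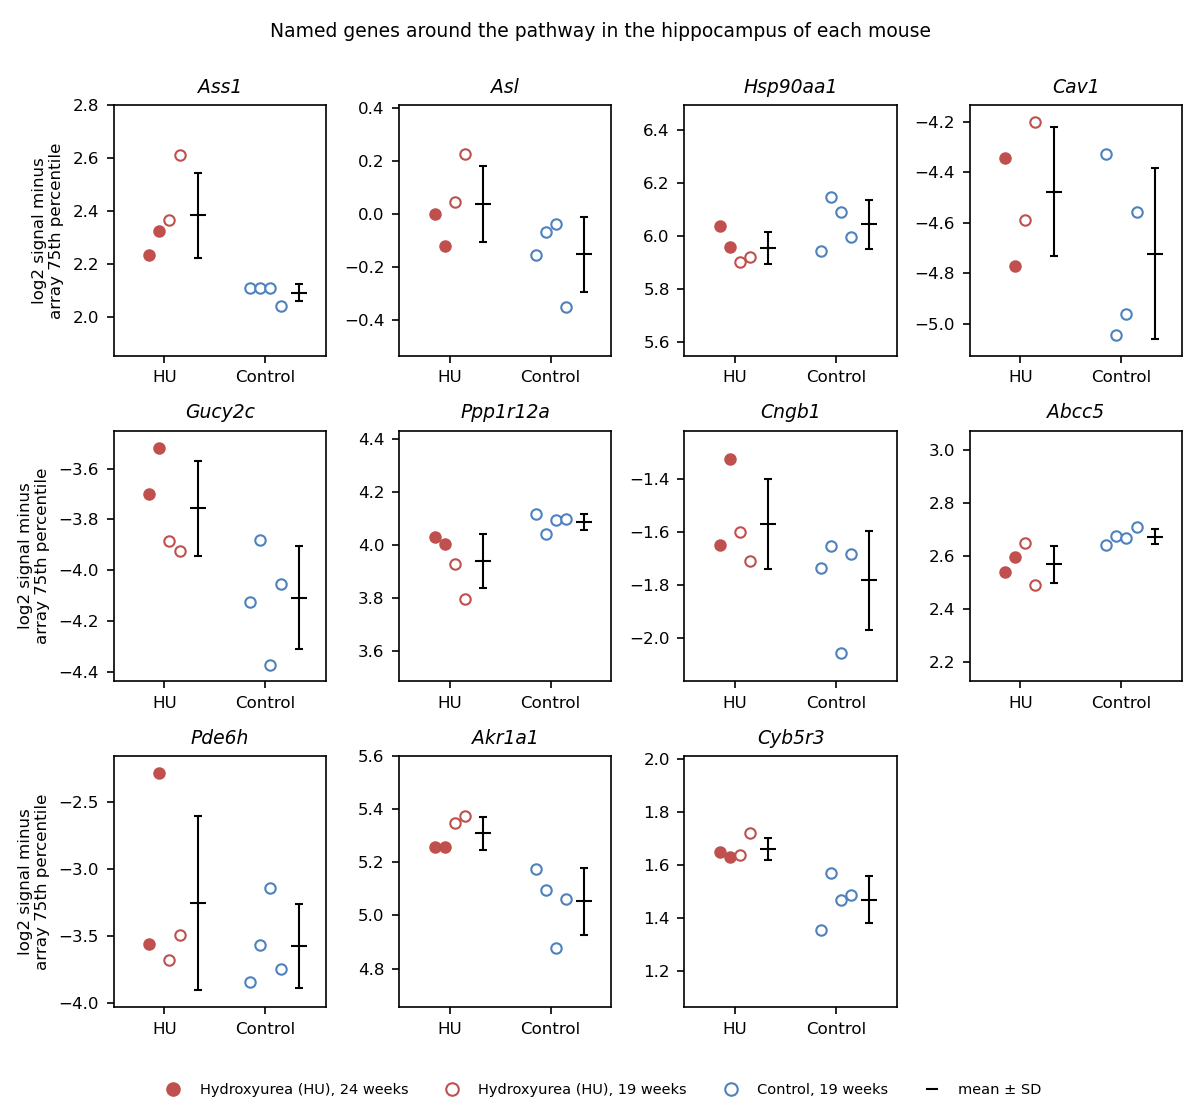
Scaled log2 signal (y axis, with its own range in each panel) of 11 named genes around the pathway in every mouse, drawn as for the 10 genes, with Hydroxyurea (HU) mice left of Control mice and mean ± SD of 4 mice. Ass1, Akr1a1 and Cyb5r3 lie above, and Ppp1r12a below, all Control values.

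Among other guanylyl cyclases, their activators and natriuretic peptides, 8 of 12 genes were higher and 4 lower, with the dim Gucy2e among the lower. Gucy2c, the receptor of guanylin peptides in intestine, was dim and had 0.35 ± 0.13 (limma adjusted p = 0.484). Gucy2g cleared background on 0 of 4 Hydroxyurea arrays and 4 of 4 Control arrays, and no fold is given. An upper bound was set for each Hydroxyurea array, its detection limit or the measured Gucy2g value where that was higher. The mean of these bounds (-5.44) was not below the Gucy2g mean of Control mice (-5.47). On the other side of the signal, 3 of 12 effectors were higher and 9 lower, with a median of -0.05. The dim Cnga3 and Pde3a were among the lower. Ppp1r12a, the regulatory subunit of myosin phosphatase on which type I kinase acts in smooth muscle, had 4.03, 4.003, 3.93 and 3.80 in Hydroxyurea 1 to 4, against 4.12, 4.04, 4.09 and 4.10 in Control 1 to 4. All Hydroxyurea values of Ppp1r12a were lower, by -0.15 ± 0.07 (adjusted p = 0.514), and a second probe had -0.12 ± 0.07. Without Hydroxyurea 4 the value was -0.10. Cngb1, a channel subunit, had 0.21 ± 0.12 (adjusted p = 0.571), and its dimmer probes had 0.04 and -0.10. The probe with -0.10 was above background on 4 of 4 Control arrays but only 2 of 4 Hydroxyurea arrays. Without Control 3 the Cngb1 value of 0.21 was 0.12, and without Hydroxyurea 2 it was 0.13.

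Of 12 other phosphodiesterase and export genes, 7 were higher and 5 lower, with a median of 0.02. Abcc5, an exporter of cGMP, had -0.10 ± 0.06 and the photoreceptor subunit gene Pde6h 0.32 ± 0.32 (limma adjusted p = 0.566 and 0.749). The Pde6h value rested on Hydroxyurea 2 (-2.28, the other Hydroxyurea mice -3.68 to -3.49) and was -0.0018 without it.

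Genes that remove nitric oxide or nitrosothiols had a group median of 0.19, from 4 higher and 3 lower of 7. Without Control 1 the median was -0.03, from 3 higher and 4 lower, so its sign rested on that array. Akr1a1, an aldo-keto reductase that can reduce S-nitroso-coenzyme A, had 5.26, 5.26, 5.35 and 5.38 in Hydroxyurea 1 to 4, against 5.18, 5.10, 4.88 and 5.06 in Control 1 to 4. Cyb5r3, a reductase that in smooth muscle keeps the haem of guanylyl cyclase reduced, had 1.65, 1.63, 1.64 and 1.72 in Hydroxyurea mice, against 1.36, 1.57, 1.47 and 1.49 in Control mice. In both, every Hydroxyurea mouse lay above every Control mouse. The log2 fold changes were 0.26 ± 0.08 for Akr1a1 and 0.19 ± 0.06 for Cyb5r3 (limma adjusted p = 0.464 and 0.476). A second Cyb5r3 probe had 0.14 ± 0.08. With median centring, which took the median of all genes to -0.085, Akr1a1 had 0.18 and Cyb5r3 0.11 (unadjusted p = 0.121 and 0.262 in limma). The value of Txnrd1 in this group, 0.45 ± 0.42, was -0.03 without Control 1.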

How the data were processed

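Hippocampal RNA of 4 Hydroxyurea and 4 Control mice was labelled with Cy3 (200 ng each, per the labels' protocols). Per the file headers, Feature Extraction 12.0.3.1 subtracted background within an array and left arrays unscaled, giving a processed intensity per spot. The authors deposited a value table too, in which each array's log signals stand as a z score (the recomputed score differed by at most 0.00502), and its columns have medians of -0.21 to -0.17. It served only as an alternative.

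Log2 signals of the spots of a probe were averaged without outlier flags and scaled to the 75th percentile over non-control spots. RefSeq accessions named 28331 of 55681 probes through the GRCm38.p6 gene table. The brightest probe stood for a gene. A gene was tested if that probe was well above background on 4 of 8 arrays and had a value on 6. No spot was saturated. Signal over background and 4 arrays per group limit the precision. Tests were two-sided, with limma 3.58.1 in R 4.3.3. Each array holds RNA of a separate mouse.

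The 10 genes, the lists and the tests were chosen with earlier results of these data known. Named genes are the 10, the pair with the smallest p in each role group, and those said to be chosen after seeing values. In simulated data with 200 genes of 16587 changed, limma called 56.6%, 74.2% and 98.3% of genes changed 1.5-, 2- and 3-fold between treatments, and 5 unchanged genes. Alternatives covered scaling, normexp (offset 50), z scores, filters, probe rule, age, replicate block, array weights and leaving out arrays. The fit without Control 1 and Hydroxyurea 2 was added after seeing the data.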

Additional observations from a re-analysis of the deposited data

Results flagged for a closer look

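Of 20 groups of 4 values (10 genes in Hydroxyurea and in Control mice), 2 held a mouse that stood apart from its group, where chance gives about 1 in 20. Pde5a in Control 1 had a scaled log2 signal of -1.51, and the nearest other Control mouse had 0.24. Prkg2 in Control 3 had -0.27, and the nearest other Control mouse had -1.54. The gap was 0.896 of the group's range for Pde5a and 0.885 for Prkg2.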

How the results depend on the processing

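The 10 genes were not called in any of 19 other settings, nor were the 68 pathway genes, and the age comparison called 0 of 10 in 9 other settings. Signs turned as follows in log2 fold change: quantile normalization gave Pde2a -0.035. Median centring gave Nos2 -0.0017 and Pde2a -0.069. Normexp gave Nos1 0.070 and Pde2a -0.013. The mean of all probes gave Nos3 0.011. Mice of 19 weeks only gave Nos2 -0.13, Pde2a -0.15 and Pde6h -0.012. Array weights gave Nos2 -0.011, Gucy1a1 0.036 and Gucy1b1 -0.0076. In z units, the deposited table gave Nos1ap 0.0175 and Hsp90aa1 0.03. Without Control 1 and Hydroxyurea 2, Nos2 was -0.068, Nos1ap 0.019, Pde5a -0.050, Pde2a -0.020, Pde6h -0.092, Gucy1b1 -0.020 and Txnrd1 -0.0054. With 1 array left out at a time, values ran from -0.27 to 0.041 for Nos1, -0.038 to 0.17 for Nos2, -0.15 to 0.0025 for Nos3, -0.15 to 0.044 for Nos1ap, -0.16 to 0.030 for Prkg1, -0.067 to 0.13 for Pde2a, -0.0018 to 0.47 for Pde6h, -0.023 to 0.28 for Gucy1b1 and -0.025 to 0.62 for Txnrd1. For these the cause was not tested. Gucy1a2, Prkg2 and Pde9a kept their signs in all 19 settings, and with 1 array left out they ran from -0.20 to -0.14, 0.18 to 0.66 and 0.04 to 0.20. Genes at an unadjusted p under 0.05 were 586 higher and 1057 lower, against 1228 and 2024 with array weights, 875 and 1647 without Control 1, and 1508 and 975 with no filter on dim probes. Same-numbered arrays did not pair: the deviations of Hydroxyurea and Control arrays of numbers 1 to 4 correlated at 0.05, 0.20, -0.21 and -0.06 across genes. With the replicate block 0 of 10 and 0 of 68 genes were called, and 563 genes were higher and 754 lower at an unadjusted p under 0.05. Dim signal limits Gucy2g, Gucy2e, Gucy2c, Cnga3, Pde3a, Cav1 and the untested genes.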
